A study of Mus musculus with 36 samples.

Results

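The PU.1 family of transcription factors is encoded by 3 mouse genes, Spi1 (PU.1), Spib (Spi-B) and Spic (Spi-C). Their rows were taken by gene symbol, 3 of the 40354 genes in the count tables, and followed through 18 combinations of C/EBPα construct and time. The cells were B cells from the bone marrow of C57BL/6J mice, infected with a retrovirus that carries C/EBPα fused to the estrogen receptor (C/EBPα-ER) and a human CD4 (hCD4) reporter, and enriched for hCD4. They grew on a layer of inactivated mouse embryonic fibroblasts with IL-7, IL-3, FLT-3, CSF-1 and SCF, and the medium used for renewal had no IL-7. Beta-estradiol (E2) moved the fusion protein into the nucleus. RNA-seq was made at 0, 1, 3, 6, 18 and 120 hours post induction (hpi), with 2 biological replicates per combination and 36 libraries in all. The constructs were wild type C/EBPα (WT), C/EBPα R35A, in which the arginine is replaced by alanine, and C/EBPα R35K, in which lysine takes its place. The comparison of constructs asks whether changing this arginine alters how fast B cells take on a macrophage program. Libraries of 0 to 18 hpi are labelled B cells and those of 120 hpi macrophages, and uninduced cells of each construct are the controls. Every group, controls included, therefore carries the fusion gene, and its cells are populations selected for a reporter rather than clones.

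PU.1 family members belong to the ETS factors, which bind DNA around a GGAA core. PU.1 is required for the formation of both myeloid cells and B cells, and high amounts of it are associated with macrophages, where it works together with C/EBPα and C/EBPβ at many myeloid enhancers. Spi-B is expressed in B cells and plasmacytoid dendritic cells and shares many B cell targets with PU.1, and Spi-C is best known from red pulp macrophages of the spleen, which recycle heme iron.

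In the mm10 (GRCm38) gene models, Spi1 lies on the plus strand at chr2:91082390-91115756, Spib on the minus strand at chr7:44525993-44532071 and Spic on the minus strand at chr10:88674772-88685015. All 3 are protein-coding, and no other gene model overlaps them. The longest stretch that transcripts of Spi1 and Spib have in common is 18 bases, shown because a read of 50 bases cannot lie inside it, and it is given in lower case because it marks no motif.
Spi1 and Spib: cagaagggcaaccgcaag
Spi1 and Spic had at most 16 identical bases in a row, and Spib and Spic 13. Reads of 50 bases without mismatches can therefore be assigned to 1 of the 3 genes.

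The 250 bases before the RefSeq start of Spib (chr7:44532072-44532321) and of Spic (chr10:88683024-88683273) are given below, 5′ to 3′ on the minus strand of GRCm38.p6, because the fusion protein is a C/EBP factor and the family itself binds GGAA. Capitals mark letters that match TTNNGNAA, a C/EBP-type motif, or GGAA, both searched on either strand.
Spib: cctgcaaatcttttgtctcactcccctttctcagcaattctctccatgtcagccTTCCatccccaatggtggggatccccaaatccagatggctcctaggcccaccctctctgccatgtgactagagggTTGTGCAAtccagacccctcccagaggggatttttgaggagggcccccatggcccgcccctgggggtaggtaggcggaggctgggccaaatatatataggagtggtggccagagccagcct
Spic: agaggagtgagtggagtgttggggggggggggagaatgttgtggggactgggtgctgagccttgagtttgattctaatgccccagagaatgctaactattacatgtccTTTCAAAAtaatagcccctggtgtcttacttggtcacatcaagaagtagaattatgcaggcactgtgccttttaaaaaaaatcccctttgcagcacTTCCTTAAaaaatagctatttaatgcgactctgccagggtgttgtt
The Spib window held 1 match to TTNNGNAA, which starts 121 bases before the gene start, and 1 GGAA core. In the Spic window there were 2 matches to TTNNGNAA, at 142 and 46 bases, the second of which overlaps the single GGAA core. Of 32851 windows of this length, 36.8% held TTNNGNAA and 93.4% held GGAA, so these matches are common letters in such windows. GAGGAA, the fuller PU.1-type core, was in 23.3% of windows and in neither of these 2. The RefSeq start of Spic lies inside the GENCODE gene model, whose first exon begins further upstream.

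Levels are given in CPM, the count of a gene divided by the total of its library on a per-million scale, with totals scaled by TMM. Over the 36 libraries the totals lay between 13044456 and 23131776 counts on genes. At 0 hpi 7 B cell markers (among them Cd79a and Pax5) summed to between 2821 and 3125 CPM and the 10 macrophage markers to between 36.1 and 41.9. At 120 hpi the sums were 63.0 to 137 and 9009 to 10824 CPM, so the markers went with the labels at both ends. In between, libraries labelled B cells could hold more macrophage than B cell marker CPM. At 1 hpi the sums were 977 to 998 against 433 to 436 in R35A and 2320 to 2389 against 779 to 787 in R35K. In WT at 18 hpi they were 309 to 316 against 293 to 298. The 8 fibroblast markers, of which Col1a1 is one, summed to between 986 and 1082 CPM at 0 hpi, 1934 and 2340 at 1 hpi, and 140 and 507 at 120 hpi. Of these 8 genes, 8 rose in WT, 7 in R35A and 6 in R35K within 1 hour, when 10.7%, 18.3% and 15.5% of all genes rose. Counts of replicates differed by a chi-square per degree of freedom of 13.2 in WT at 6 hpi and 7.18 in R35K at 3 hpi, more than in any other group (lowest 1.11), and values without single libraries are given where a call of a member depended on one. The 9 granulocyte markers went from between 48.2 and 62.0 CPM to between 2.04 and 4.59 in that hour, with Elane at 0 in WT and R35K. Dendritic cell markers never exceeded 9.66 CPM in sum, T cell markers 9.35 and erythroid markers 0.464, and the 4 plasma cell markers lay between 145 and 400. These sums moved between 0 and 1 hpi together with the members, and their part in the changes below was not tested. In bulk RNA, a change in the number of cells of 1 type and a change of RNA per cell cannot be told apart.

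Before induction, no member was called between the constructs, and Spib was the most abundant of the 3. Spi1 was at 32.8 and 33.2 CPM in the WT libraries, 31.1 and 31.8 in R35A and 30.3 and 31.9 in R35K. Spib stood at 111 and 116 CPM in WT, 99.7 and 102 in R35A and 109 and 105 in R35K. Spic was barely detected, with 1, 1 and 3 counts summed over the 2 libraries of WT, R35A and R35K. A gene was called when its fold change was at least 1.5 and the Benjamini-Hochberg adjusted p of edgeR's quasi-likelihood test, over all genes tested, was at most 0.05. All 3 members passed the low-count filter, Spic only through its later timepoints. Between R35A and WT at 0 hpi 0% of genes were called, against 1618 genes at an unadjusted p under 0.05, DESeq2's Wald test called 1 gene, and edgeR called 11 without R35A 0 hpi replicate 2 and 1 without WT 0 hpi replicate 1. The log2 difference of R35A minus WT was -0.06 for Spi1 (95% interval -0.20 to 0.07) and -0.16 for Spib (-0.28 to -0.05, adjusted p = 0.298). R35K libraries come in count tables of their own, so that construct and table cannot be told apart, yet edgeR called 0% of genes between R35K and WT at 0 hpi (1010 at an unadjusted p under 0.05) and 0.00579%, which is 1 gene, between R35K and R35A.

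Spi1 rose within 1 hour in all 3 constructs, least in WT and most in R35K. The WT libraries reached 75.9 and 72.0 CPM at 1 hpi, the R35A libraries 94.3 and 95.6, and the R35K libraries 158 and 151. No library of 1 hpi overlapped its 0 hpi controls, and the 3 constructs did not overlap each other. In log2 terms Spi1 rose by 1.18 ± 0.06 (SE, n = 2 per group) in WT, 1.57 ± 0.05 in R35A and 2.26 ± 0.06 in R35K, which are folds of 2.27, 2.96 and 4.80 (edgeR adjusted p = 1.05e-23, 1.54e-30 and 2.79e-27). At this time Spi1 and Spib were called in each construct, beside 19.9% of all genes in WT, 37.3% in R35A and 32.9% in R35K. Spic was called too, but it passed the low-count filter only through its later timepoints. Its calls against 0 hpi, here and below, are therefore not independent of that filter.

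After the first hour the courses of Spi1 parted. In WT cells it stood at 58.6 and 66.0 CPM at 3 hpi, 64.3 and 66.6 at 6 hpi, and 43.1 and 43.5 at 18 hpi, so that the 18 hpi libraries lay below all WT libraries of 1 to 6 hpi. R35A cells held 112 and 115 CPM at 3 hpi, 100.3 and 98.8 at 6 hpi, and 111 and 116 at 18 hpi. R35K cells held 138 and 150 CPM at 3 hpi, 190 and 185 at 6 hpi, and 183 and 182 at 18 hpi. The mutants thus stayed at or above their 1 hpi level at 18 hpi, whereas WT had returned most of the way to its controls. Fibroblast marker sums at 18 hpi ran in the reverse order of Spi1. They were 2564 to 2630 CPM in WT, 1997 to 2014 in R35A and 1443 to 1462 in R35K. The order was the same at 3 and 6 hpi but not at 1 hpi. At 1 hpi R35A had the highest sums, 2328 to 2340 CPM, against 2130 to 2137 in WT and 1934 to 1994 in R35K. The part of such differences in cell content in the Spi1 levels was not tested. The WT change from 0 hpi was 0.92 ± 0.06 at 3 hpi, 0.97 ± 0.06 at 6 hpi and 0.39 ± 0.06 at 18 hpi, a fold of 1.31 that did not reach the 1.5 required (adjusted p = 2.99e-07). In the mutants the changes were 1.82, 1.64 and 1.83 at 3, 6 and 18 hpi in R35A and 2.17, 2.53 and 2.51 in R35K, with SE of 0.05 to 0.06. Spi1 was called in each of these comparisons except WT at 18 hpi, and Spib in each of them, as was Spic with the limit given above. Of all genes, 23.5%, 29.8% and 47.1% were called in WT at these times, 36.8%, 37.7% and 42.6% in R35A and 32.7%, 34.1% and 39.0% in R35K. Between 6 and 18 hpi the log2 difference of WT Spi1 was -0.58 ± 0.05, just short of a 1.5-fold change, and it was called without WT 18 hpi replicate 1 (-0.59), without WT 18 hpi replicate 2 (-0.60), without WT 6 hpi replicate 1 (-0.61) and under the stricter count filter (-0.60). In that step 13.3% of genes were called.

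At 120 hpi Spi1 had risen more than 10-fold in each construct. The libraries held 415 and 390 CPM in WT, 405 and 369 in R35A, and 365 and 326 in R35K. WT and R35A overlapped, while both R35K libraries lay below the others, by -0.22 ± 0.04 on the log2 scale against WT (not called). Relative to 0 hpi the log2 changes were 3.48 ± 0.05, 3.50 ± 0.05 and 3.37 ± 0.06, or folds of 11.2, 11.3 and 10.4 (adjusted p = 8.38e-48, 2.60e-48 and 2.14e-33). Most of the WT rise fell in the last interval, where Spi1 went up 8.53-fold from 18 to 120 hpi, against 3.17-fold in R35A and 1.82-fold in R35K. In that step 60.5% of genes were called in WT, 53.9% in R35A and 53.3% in R35K. At 120 hpi 63.3% of genes were called in WT, 63.1% in R35A and 63.8% in R35K, with Spi1 and Spib in each, and Spic with the limit given above.

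**Figure D1:**
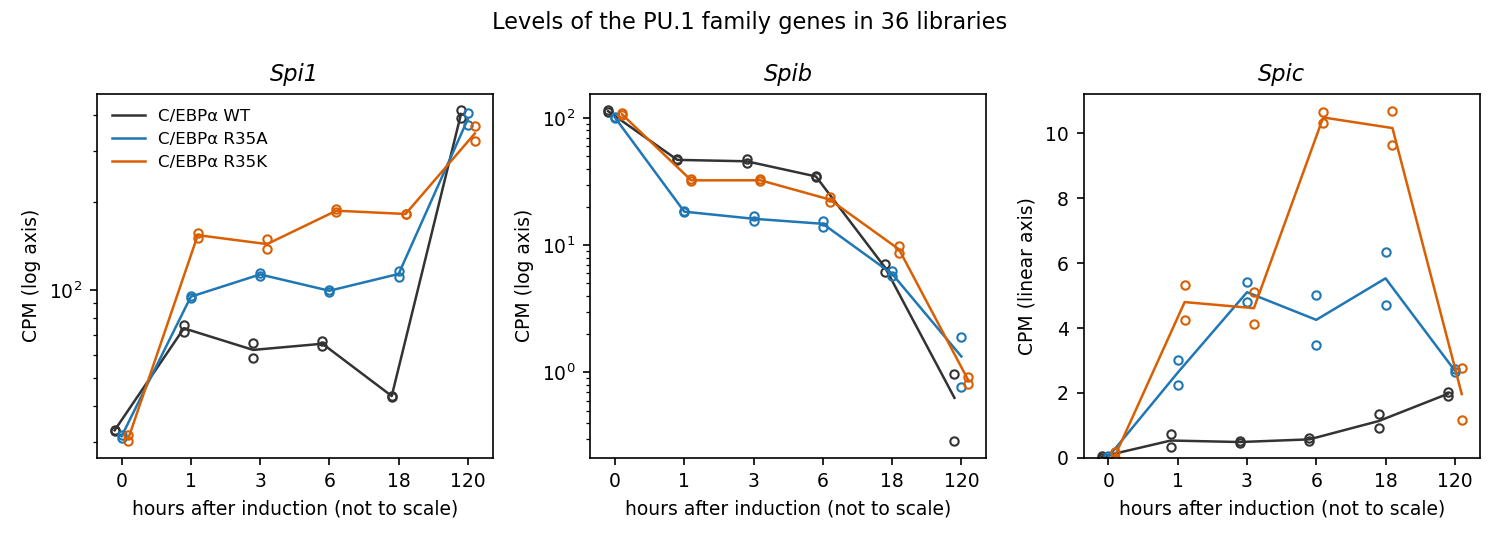
Levels of Spi1, Spib and Spic in CPM against hours after induction, which are evenly spaced and not to scale. Circles are libraries and lines join means of 2 replicates: Spi1 at 18 hpi was 43.1 and 43.5 CPM in WT and at least 111 CPM in the mutant libraries, and Spic was highest in R35K at 6 and 18 hpi.

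Spib went the other way, and here the strongest early response was that of R35A. From controls above 99 CPM, the libraries of 1 hpi fell to 46.5 and 47.3 CPM in WT, 18.52 and 18.19 in R35A, and 32.9 and 31.8 in R35K. The constructs were again fully separated, but in an order that placed R35K between the other two. Log2 changes at 1 hpi were -1.25 ± 0.06 in WT, -2.48 ± 0.07 in R35A and -1.78 ± 0.06 in R35K, leaving 0.420, 0.179 and 0.291 of the control level (adjusted p = 2.85e-23, 4.87e-34 and 5.36e-24). Spib is one of the B cell genes that the study used to mark the loss of B cell identity in these libraries, so its direction is not independent evidence of that loss.

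From 1 to 6 hpi Spib moved by less than 1.5-fold per step. WT libraries of Spib held 47.4 and 44.1 CPM at 3 hpi and 34.2 and 35.3 at 6 hpi. R35A libraries held 15.4 and 16.9, then 15.5 and 14.0, and R35K libraries 31.8 and 33.0, then 21.9 and 23.8. The largest of these steps was -0.52 ± 0.07 on the log2 scale, in R35K from 3 to 6 hpi, and none was called for Spib (1.04% and 1.04% of genes called in WT, 0.553% and 0.177% in R35A, 0.347% and 1.19% in R35K), and at 3 hpi each construct overlapped its own 1 hpi libraries except R35A. Between 6 and 18 hpi it fell again, by -2.37 ± 0.10 on the log2 scale in WT, -1.31 ± 0.12 in R35A and -1.28 ± 0.09 in R35K, and each of these steps was called, beside 13.3%, 4.28% and 5.40% of genes. At 18 hpi the WT libraries held 6.19 and 7.12 CPM, the R35A libraries 6.23 and 5.68, and the R35K libraries 9.80 and 8.74, so that WT and R35A now overlapped and R35K lay above both.

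Few Spib reads were left at 120 hpi. Counts were 11 and 3 in WT, 9 and 25 in R35A, and 11 and 10 in R35K, or 0.973 and 0.287, 0.768 and 1.90, and 0.919 and 0.812 CPM. The libraries of the 3 constructs overlapped. Changes of Spib from 0 hpi were -7.57, -6.32 and -7.04 on the log2 scale. Standard errors from the F statistic (0.15, 0.13 and 0.12) are too small at so few counts. At these counts single libraries set the size, since WT stood at -8.58 without WT 120 hpi replicate 1 and -6.85 without replicate 2, and R35A at -5.72 without R35A 120 hpi replicate 1 and -7.02 without replicate 2.

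Spic appeared in all induced groups at low counts, and the mutants carried more of it from the first hour to 18 hpi. Within 1 hour summed counts went from 1 to 17 in WT, from 1 to 93 in R35A and from 3 to 151 in R35K. As ratios of CPM these are 14.9 (exact 95% counting interval 2.33 to 622), 88.6 (15.5 to 3537) and 53.1 (17.8 to 260), and such intervals cover counting error only. The width comes from the controls, so the size of the rise from 0 hpi is loosely known, while later groups can be set against each other. WT libraries held 0.723 and 0.344 CPM at 1 hpi, 0.510 and 0.464 at 3 hpi, 0.524 and 0.614 at 6 hpi, 1.34 and 0.926 at 18 hpi, and 2.03 and 1.91 at 120 hpi. R35A libraries held 3.01 and 2.24 CPM at 1 hpi, 5.40 and 4.80 at 3 hpi, 3.49 and 5.02 at 6 hpi, 6.35 and 4.71 at 18 hpi, and 2.64 and 2.73 at 120 hpi. R35K libraries held 4.26 and 5.34 CPM at 1 hpi, 4.12 and 5.10 at 3 hpi, 10.6 and 10.3 at 6 hpi, 10.7 and 9.63 at 18 hpi, and 1.17 and 2.76 at 120 hpi. The highest WT library of 1 to 18 hpi lay below the lowest mutant library of those times.

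Spic was the member whose course turned in the mutants. From 18 to 120 hpi it fell by 1.12 ± 0.22 on the log2 scale in R35A (edgeR adjusted p = 1.06e-05). In R35K it fell by 2.42 ± 0.22 (edgeR adjusted p = 8.16e-12). In these steps 53.9% and 53.3% of genes were called. With single libraries left out, the R35A change ranged from -1.24 to -0.80. The R35K change ranged from -3.13, without R35K 120 hpi replicate 2, to -1.90. The same step in WT was 0.69 ± 0.34 (95% interval -0.00 to 1.37, adjusted p = 0.0633), and 1.09 with a call when WT 18 hpi replicate 1 was left out. R35K rose in the step from 3 to 6 hpi, by 1.14 ± 0.16 (adjusted p = 2.73e-06, 1.19% of genes called). R35A rose from 1 to 3 hpi, by 0.95 ± 0.21 (adjusted p = 0.00165, 0.553% of genes called), which was not called without R35A 1 hpi replicate 2 (0.76). WT Spic from 6 to 18 hpi was 0.98 ± 0.42 (adjusted p = 0.052), and it was called without WT 18 hpi replicate 2 (1.22).

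The constructs were next compared at each time. For R35A minus WT, Spi1 differed by 0.32 ± 0.05 on the log2 scale at 1 hpi, a fold of 1.25 that was not called, by 0.84 ± 0.05 at 3 hpi, 0.61 ± 0.05 at 6 hpi and 1.38 ± 0.05 at 18 hpi (adjusted p = 1.10e-20, 1.86e-15 and 1.12e-28). The 6 hpi difference, 1.52-fold, slipped under 1.5-fold without WT 6 hpi replicate 1 (0.58). At 120 hpi it was -0.05 (95% interval -0.13 to 0.03). Spib differed by -1.39 ± 0.08, -1.52 ± 0.08 and -1.24 ± 0.08 at 1, 3 and 6 hpi, each called, and by -0.18 (-0.47 to 0.10) at 18 hpi. Spic was higher in R35A by 2.28 ± 0.35, 3.35 ± 0.31, 2.91 ± 0.30 and 2.26 ± 0.25 from 1 to 18 hpi, that is 4.85-fold, 10.2-fold, 7.50-fold and 4.79-fold (adjusted p = 1.75e-07, 2.22e-13, 1.41e-11 and 8.75e-11), and by 0.45 (-0.15 to 1.06) at 120 hpi. With single libraries left out, the Spic value at 1 hpi ranged from 1.82 to 2.86, the latter without WT 1 hpi replicate 1. Of the 3 members 2, 3, 3, 2 and 1 were called at these times, beside 19.3%, 17.0%, 13.7%, 10.1% and 18.8% of genes. WT libraries of 1 to 6 hpi held only 6 to 11 Spic counts, and Spic passed the low-count filter through groups with more. Its calls against WT, here and below, are therefore not independent of that filter either. The 1 member called at 120 hpi was Spib, at 1.08 ± 0.42 (adjusted p = 0.0315). Its libraries overlapped, and the difference was 0.25 without R35A 120 hpi replicate 2 and 0.49 without WT 120 hpi replicate 2, neither of them called, but 2.22 without WT 120 hpi replicate 1. At 1 hpi, 7 of 7 B cell markers were lower and 9 of 10 macrophage markers higher in R35A than in WT, and of the 8 fibroblast markers 1 was higher and 0 lower, beside 8.51% of all genes higher and 10.8% lower.

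Setting each construct against its own 0 hpi libraries placed R35K highest for Spi1 at each time up to 18 hpi, and R35A lowest for Spib up to 6 hpi. The change of Spi1 in R35A exceeded that in WT by 0.38 ± 0.08 at 1 hpi (not called, a fold of 1.31) and, called each time, by 0.90 ± 0.08, 0.67 ± 0.08 and 1.44 ± 0.08 at 3, 6 and 18 hpi. In R35K the excess over WT was 1.15 ± 0.09, 1.30 ± 0.09, 1.61 ± 0.09 and 2.16 ± 0.09 at the same times, all called (adjusted p at most 1.90e-16). R35K also exceeded R35A, by 0.72 ± 0.08 at 1 hpi, 0.94 ± 0.08 at 6 hpi and 0.70 ± 0.08 at 18 hpi, each called, and by 0.37 ± 0.08 at 3 hpi, which was not. At 120 hpi the differences were 0.01, -0.13 and -0.14 and none was called.

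For Spib the R35A change was below the WT change by 1.23 ± 0.10, 1.36 ± 0.10 and 1.08 ± 0.10 log2 units at 1, 3 and 6 hpi (adjusted p = 2.81e-15, 3.73e-16 and 1.92e-12). R35K minus WT gave -0.46 ± 0.09, -0.41 ± 0.09 and -0.52 ± 0.09, whose adjusted p values were at most 0.00016 but whose folds were under 1.5, and at 18 hpi 0.56 ± 0.14. The value at 6 hpi was called without R35K 6 hpi replicate 2 (-0.59) or WT 6 hpi replicate 1 (-0.59), and that at 18 hpi without R35K 18 hpi replicate 2 (0.64), WT 0 hpi replicate 1 (0.59) or WT 18 hpi replicate 2 (0.67). R35K minus R35A gave 0.73 ± 0.10 at 1 hpi and 0.92 ± 0.10 at 3 hpi, both called, then 0.55 ± 0.10 and 0.56 ± 0.14 at 6 and 18 hpi, which were called only when single libraries were left out (R35A 6 hpi replicate 1 at 0.62, R35K 6 hpi replicate 1 at 0.61, R35A 18 hpi replicate 1 at 0.62, R35K 0 hpi replicate 1 at 0.59 and R35K 18 hpi replicate 2 at 0.64). The mutants therefore differed from each other in both genes at 1 hpi, with more Spi1 gained in R35K and more Spib lost in R35A. At 120 hpi R35A minus WT was 1.25 ± 0.43 for Spib, called, but 0.42 without R35A 120 hpi replicate 2 and 0.65 without WT 120 hpi replicate 2, neither called, and 2.39 without WT 120 hpi replicate 1.

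Counted over the family in order of time from 1 to 120 hpi, the change differed between R35A and WT for 1, 2, 2, 1 and 1 of the 3 members, beside 14.0%, 13.0%, 10.3%, 8.36% and 14.5% of genes. Between R35K and WT it differed for 1 member at each time up to 18 hpi and for 0 at 120 hpi, beside 11.9%, 10.0%, 12.2%, 13.3% and 10.1% of genes. Between R35K and R35A the counts were 2, 1, 1, 1 and 0, beside 5.83%, 3.02%, 5.89%, 3.44% and 1.61%. Spic could not be judged in this way, since 1 to 3 control counts gave its differences standard errors between 0.64 and 2.39 log2 units. Set side by side at the same time, with the caveat on tables above, Spic in R35K was above WT by 3.19 ± 0.33, 3.25 ± 0.32, 4.18 ± 0.27 and 3.17 ± 0.23 log2 units from 1 to 18 hpi and by 0.00 ± 0.34 at 120 hpi. R35K was above R35A in Spic at 1, 6 and 18 hpi, by 0.87 ± 0.22, 1.27 ± 0.17 and 0.90 ± 0.16, while at 3 hpi the difference was -0.12 (95% interval -0.50 to 0.26). In such comparisons, in order of time from 1 to 120 hpi, 2, 2, 3, 2 and 0 members were called between R35K and WT, beside 15.2%, 13.0%, 14.9%, 15.3% and 13.8% of genes. Between R35K and R35A 3, 1, 3, 3 and 0 were, beside 8.49%, 5.04%, 9.18%, 5.77% and 2.85%. The calls of Spic against WT carry the filter limit given above.

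**Figure D2:**
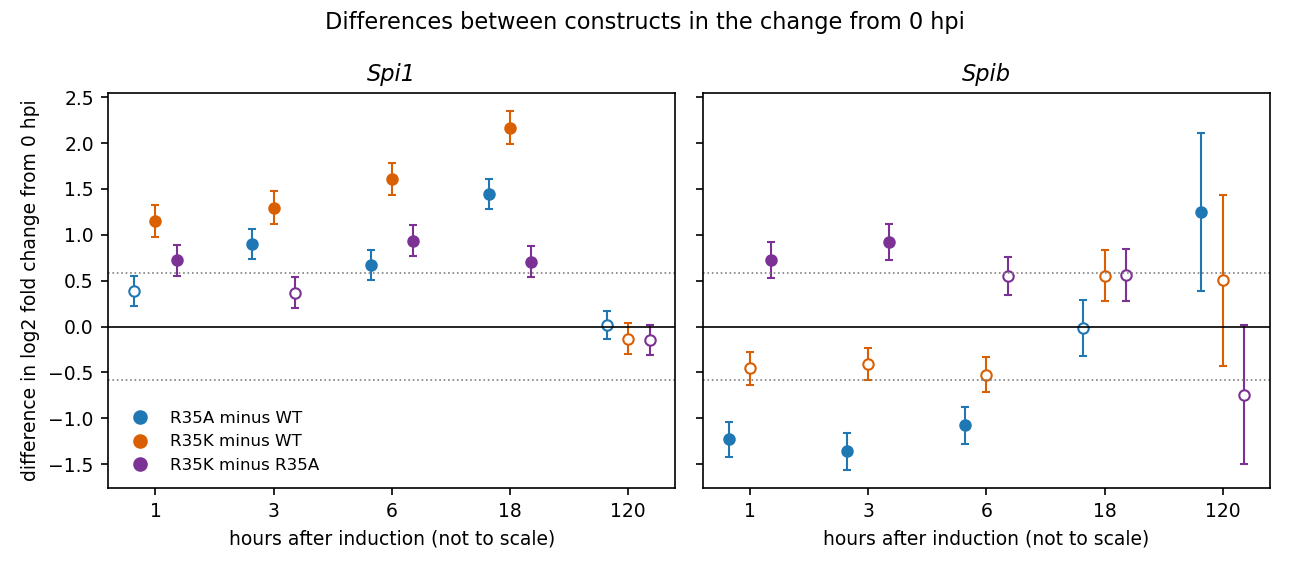
Differences between constructs in the log2 change from 0 hpi for Spi1 and Spib, against hours after induction (evenly spaced), as edgeR estimates with 95% intervals, filled where called, and dotted lines at a 1.5-fold difference. Spi1 differences grew to 1.44 and 2.16 at 18 hpi and lay near 0 at 120 hpi, and R35A minus WT for Spib was at or below -1.08 from 1 to 6 hpi.

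The balance between Spi1 and Spib was read from CPM per kilobase of exon, which corrects for gene length. In the 0 hpi libraries the ratio of Spi1 to Spib lay between 0.295 and 0.332, that is, Spib transcripts outnumbered those of Spi1. One hour later the ratio was 1.74 and 1.62 in WT, 5.42 and 5.59 in R35A, and 5.10 and 5.06 in R35K. The 2 mutants thus reached nearly the same ratio by different routes, with the larger Spi1 gain in R35K and the larger Spib loss in R35A. WT libraries reached 7.42 and 6.50 only at 18 hpi, when R35A stood at 19.0 and 21.8 and R35K at 19.8 and 22.2. At 120 hpi the ratio lay between 207 and 1447 and rested on at most 25 Spib counts per library. With the longest coding transcript in place of all exons, a choice added after the data were seen, every ratio was larger, 2.24 and 2.09 for WT at 1 hpi and 0.381 to 0.428 at 0 hpi.

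**Figure D3:**
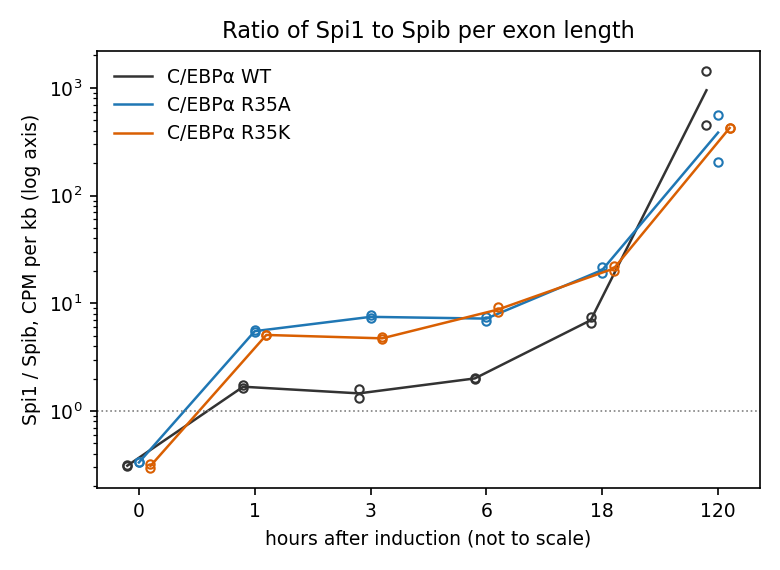
Ratio of Spi1 to Spib in CPM per kilobase of exon (log axis) against hours after induction (evenly spaced), with circles for libraries, lines through the means of 2 replicates and a dotted line at a ratio of 1. All 6 libraries of 0 hpi lay at 0.295 to 0.332, and at 1 hpi the mutants lay between 5.06 and 5.59, above the WT values of 1.74 and 1.62.

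Among 26 ETS factors with rows in the tables (the 3 members and 23 others), Spi1 rose in rank and Spib fell. At 0 hpi Spib led in WT with 39.5 CPM per kb, next to Elf1 (38.3) and Ets1 (36.2), and Spi1 was at rank 13 in each construct. The SD between replicates was 1.13 for Spib and 0.742 for Elf1, the libraries of both genes overlapped, and in R35A Elf1 came first. Spi1 was first in R35A at 1 hpi with 35.2 CPM per kb, next to Elk3 with 31.7, and first in R35K with 57.3 against 28.1 for Elk3. It then held rank 1 in both mutants at each later time. In WT it ranked 2, 5, 4 and 5 from 1 to 18 hpi, led by Ets1 at 1 hpi and Elk3 at 18 hpi. In WT it was first at 120 hpi only, with 149 CPM per kb and Ets2 next at 41.9. By then Spib was at rank 19 in every construct, and Spic had moved from ranks 23 to 25 up to 17 or 18. Per longest coding transcript, Spi1 kept rank 1 in the same groups, but Spib was only at rank 3 at 0 hpi, so its lead there depended on the length used.

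Of the 23 other ETS factors 18 could be tested. At 1 hpi 1 rose and 0 fell in WT, 4 rose and 5 fell in R35A, and 3 rose and 5 fell in R35K, and at 120 hpi 5 rose and 7 fell in WT. Over all genes 10.7% rose and 9.27% fell at 1 hpi in WT, 18.3% and 18.9% in R35A, and 15.5% and 17.4% in R35K. At 120 hpi 23.1% rose and 40.2% fell in WT, 24.2% and 39.0% in R35A, and 25.4% and 38.5% in R35K. Ets2 rose in WT by 0.66 ± 0.05 at 1 hpi and 2.27 ± 0.05 at 120 hpi, and Etv5 by 2.40 ± 0.08 at 120 hpi. Erg and Ets1, ETS factors of blood stem cells and lymphocytes, had log2 changes of -7.83 ± 0.21 and -4.28 ± 0.05 over 120 hours. Erg was near the floor by then, with a WT mean of 0.276 CPM, so its standard error is too small. The median of the list at 120 hpi in WT was 0.08, beside -0.36 for all genes tested.

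**Figure D4:**
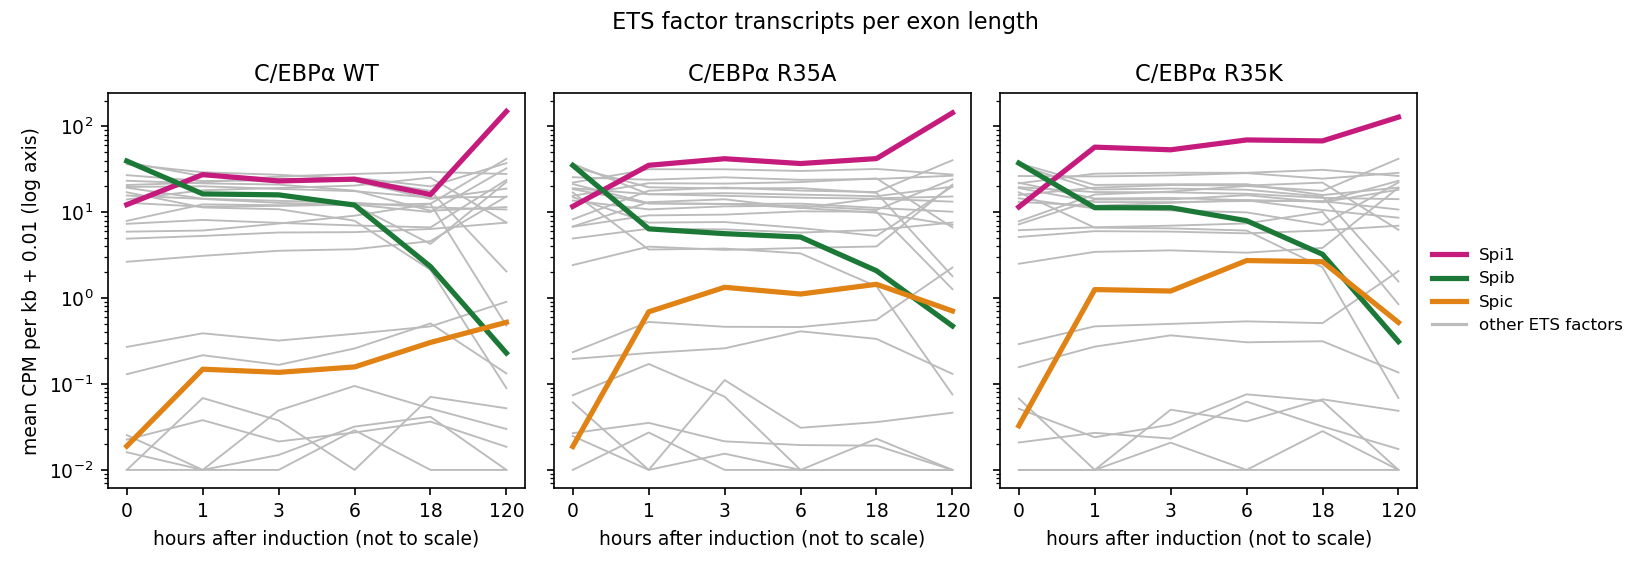
Mean CPM per kilobase of exon plus 0.01 (log axis) for 26 ETS factors in each construct, against hours after induction (evenly spaced), 1 line per gene through the means of 2 replicates. Spi1 was at rank 13 at 0 hpi and first in R35A and R35K from 1 hpi on, but in WT first only at 120 hpi, and Spib sank to rank 19.

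The partners and regulators of PU.1 that were examined (19 genes, 17 tested) gave a mixed picture. At 1 hpi 6 rose and 5 fell in WT, 7 and 6 in R35A, and 6 and 6 in R35K, and at 120 hpi 9 rose and 4 fell in WT. Of all genes, 10.7% rose and 9.27% fell in WT at 1 hpi, 18.3% and 18.9% in R35A, 15.5% and 17.4% in R35K, and 23.1% and 40.2% in WT at 120 hpi. Cebpb, which encodes a C/EBP factor that acts with PU.1 in macrophages, rose by 1.09 ± 0.10 in WT at 1 hpi and 3.06 ± 0.08 at 120 hpi. Egr2, a zinc finger factor of macrophages, rose by 1.79 ± 0.09 and 4.53 ± 0.07. Myb, a progenitor factor, fell by 0.74 ± 0.04 in WT at 1 hpi and stood at -6.52 ± 0.07 at 120 hpi. The Myb difference of R35A minus WT in the change to 1 hpi was -2.29 ± 0.06 (edgeR adjusted p = 9.89e-35). Gata2, which antagonises PU.1 in progenitors, was at 0.37 ± 0.11 in WT at 1 hpi, not called, and fell by 4.98 ± 0.27 to 120 hpi. By then its WT mean was 0.368 CPM, near the floor, so the latter standard error is too small.

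Myeloid genes known as PU.1 targets mostly rose. Of 21 listed and tested, 17 rose and 1 fell in WT at 1 hpi, and 21 of 21 rose in R35A and in R35K, with median log2 changes of 3.35, 4.78 and 5.59 beside medians near 0 for all genes (-0.01, -0.01 and -0.04), of which 10.7%, 18.3% and 15.5% rose. Il1b, a cytokine gene, rose by 4.05 ± 0.33 in WT at 1 hpi and 11.05 ± 0.11 at 120 hpi, and Fcgr1, the high affinity receptor for IgG, by 3.93 ± 0.40 and 11.06 ± 0.12. In WT at 0 hpi both were near the floor, with means of 0.245 and 0.175 CPM, so these standard errors are too small. The change differed between R35A and WT at 1 hpi for 17 of these genes, each higher in R35A (5.29% of all genes were higher and 8.74% lower), and at 18 hpi for 19, all higher (8.36% of all genes differed). At 120 hpi it differed for 3 of 21 (2 higher, 1 lower), a share near the 14.5% of all genes. Of this list, 7 genes, Csf1r and Itgam among them, belong to the macrophage genes that the study chose for these libraries. The whole list was chosen with earlier results of these data known, so its direction is not independent evidence.

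B cell genes known as PU.1 and Spi-B targets mostly fell. Of 16, 0 rose and 10 fell in WT at 1 hpi, 0 and 12 in R35A, and 1 and 11 in R35K, with medians of -0.84, -2.30 and -1.66. Of all genes 9.27%, 18.9% and 17.4% fell. Blk, a kinase of the B cell receptor pathway, changed by -2.21 ± 0.05 in WT at 1 hpi and -9.53 ± 0.14 at 120 hpi, and Ikzf3, the lymphoid factor Aiolos, by -2.52 ± 0.05 and -9.70 ± 0.13. At 120 hpi their WT means were 0.280 and 0.313 CPM, near the floor, so the standard errors there are too small. Fcgr2b and Ptprc, an Fc receptor and the CD45 phosphatase, which macrophages express too, rose by 3.44 ± 0.04 and 2.35 ± 0.04 to 120 hpi. The change differed between R35A and WT for 12 of 16 at 1 hpi (1 higher, 11 lower) and between R35K and WT for 8 (3 higher, 5 lower), beside 14.0% and 11.9% of all genes. Again 4 of these genes, Blk and Ikzf3 included, are in the B cell list of the study, and the whole list was chosen with earlier results known.

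Heme and iron genes of the macrophages that depend on Spi-C were counted as well (12 genes, all tested). At 1 hpi 10 rose in WT, 9 in R35A and 11 in R35K, and 0 fell, and at 120 hpi 10 rose and 1 fell in each construct. Of all genes 10.7%, 18.3% and 15.5% rose at 1 hpi, and at 120 hpi 23.1% to 25.4% rose and 38.5% to 40.2% fell. Cd163, the hemoglobin scavenger receptor, stood at a mean of 25.7 CPM in WT at 120 hpi and, near the floor, at 0.0356 CPM at 0 hpi. Cd5l, a secreted protein of macrophages, rose by 10.16 ± 0.14 in WT to 120 hpi, at a time when Spic had 23 and 20 counts. The WT mean of Cd5l at 0 hpi was 0.208 CPM, near the floor, so that standard error is too small. Vcam1, an adhesion molecule of red pulp macrophages and of stromal cells, fell by 4.57 ± 0.10 in WT to 120 hpi. At 1 hpi its change was 0.47 ± 0.05 in WT (not called), 1.15 ± 0.04 in R35A and 0.75 ± 0.05 in R35K (both called). The fibroblast marker sum was lowest at 120 hpi too, and its part in the Vcam1 change was not tested.

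Across the 36 libraries, the log2 CPM of Spi1 and Spib correlated at -0.82, Spi1 and Spic at 0.72, and Spib and Spic at -0.50. These values are descriptions, since the libraries share time points and constructs. The genes whose log2 CPM was most like that of Spi1 were Rassf4 (r = 0.992), Susd3, Arl11, Efhd2 and Tnfrsf1b (0.987) among 17276 compared. For Spib they were Pou2af1 (0.989), Gm37065, Dntt, Chst3 and Il33 (0.987), and for Spic Pdgfb (0.980), Riok3, Acod1, Fnip2 and Cpeb4 (0.968). The same 5 genes came first for each member with the log2 values of the authors. By Spearman's rho the order changed, with Tnfrsf1b first for Spi1, Dtl for Spib and Slc11a2 for Spic.

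Each of the 3 genes has a myosin binding protein C gene downstream on its own chromosome, and the neighbours were examined after their values had been seen. Mybpc3 starts 2387 bases beyond the end of Spi1 on the same strand, and Mybpc2 1336 bases beyond Spib, with no gene between them. Mybpc2 counts followed those of Spib, with r = 0.981 in log2 CPM over 36 libraries and 12.6 to 24.3 (median 18.3) counts per 100 Spib counts in the 28 libraries with at least 100 of them. In WT it had 324 and 317 counts at 0 hpi, 122 and 146 at 1 hpi, and 0 in both libraries of 120 hpi. Mybpc3 had r = 0.941 with Spi1 and 2.71 to 7.86 (median 4.68) counts per 100, with 13 and 25 counts in WT at 0 hpi and 242 and 196 at 120 hpi. Mybpc1, 69619 bases from Spic with 4 genes between, had r = -0.437. Pold1, which encodes the catalytic subunit of DNA polymerase delta and lies 674 bases upstream of Spib, had r = 0.641 with it.

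**Figure D5:**
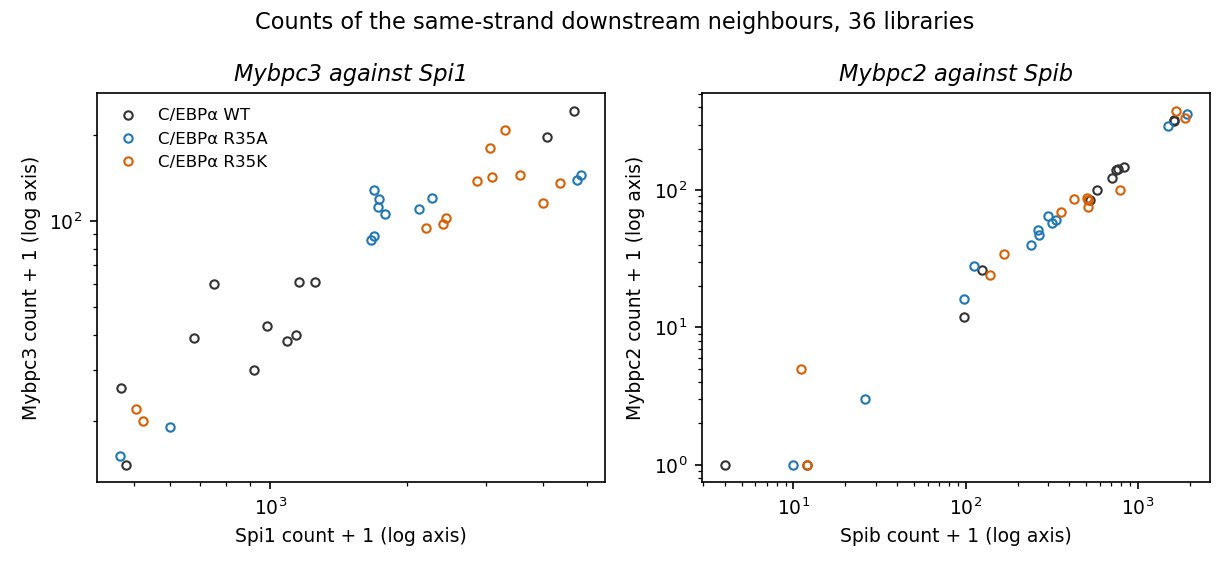
Counts plus 1 (log axes) of the same-strand downstream neighbours Mybpc3 and Mybpc2 against counts plus 1 of Spi1 and Spib, 1 circle per library and 36 libraries per panel. Mybpc2 followed Spib with a median of 18.3 counts per 100, and Mybpc3 followed Spi1 with a median of 4.68 per 100.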

How the data were processed

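Poly(A) RNA-seq of 36 libraries (3 constructs, 6 timepoints, 2 replicates) was analysed. Per the labels and methods, the authors used a stranded kit with 50-base single-end reads, FastQC, STAR 2.5.0a on mm10 with its gene counts, and DESeq2 1.14.1. The strand column and annotation release are not given in the sources used here. The deposited count tables hold raw counts per gene, in a table for WT and R35A (24 libraries) and one for R35K (12 libraries). The deposited log2 tables hold, for 100% of values within 1e-06, the log2 of the count over the library's size factor plus 1.

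Counts were fitted with edgeR 4.0.16 (R 4.3.3; filterByExpr, TMM, quasi-likelihood F test): WT and R35A together (16988 genes), R35K alone (16434 genes), and all libraries (17277 genes) for R35K against the others. A call needed a 1.5-fold change and p no higher than 0.05 after Benjamini-Hochberg adjustment over all genes. Standard errors came from the F statistic, and for large changes to or from few counts they are too small. Alternatives were DESeq2 1.42.0, its size factors, other count filters, a replicate block and each library left out. Direct R35K levels, transcript lengths and the alternatives for steps between timepoints were added after the data were seen. The edgeR fit of WT and R35A was tested on simulated counts, and the other fits and steps were not. Motifs were searched in RefSeq windows of GRCm38.p6, where Spib and Spic, but not Spi1, matched. Exon lengths are from GENCODE vM21.

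Totals were 13044456 to 16546385 counts in WT, 13683736 to 20580185 in R35A and 14668754 to 23131776 in R35K. Replicate scatter, as the median over genes, was 1.07 to 2.00 times counting noise. The edgeR fits put the spread between replicates at a common coefficient of variation of 3.17% to 3.49%. Standard errors and p values rest on that spread between 2 replicates per group. The chi-square per degree of freedom was 1.11 to 13.2, and no pair agreed within sampling noise. Named genes were the members, up to 2 per list and direction with the largest called WT change to 120 hpi, the 5 most like each member, and leading ETS factors. The members and lists were chosen with earlier results of these data known, and 1 gene of the B cell lists is not reported here.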

Additional observations from a re-analysis of the deposited data

Results flagged for a closer look

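Several responses differed between constructs by a test of the difference itself (edgeR's quasi-likelihood test of the interaction, adjusted over all genes), given in log2 units relative to each construct's own 0 hpi libraries. For Spi1, R35A minus WT was 0.90 at 3 hpi (adjusted p = 3.73e-13), 0.67 at 6 hpi and 1.44 at 18 hpi. R35K minus WT was 1.15, 1.30, 1.61 and 2.16 at 1, 3, 6 and 18 hpi. R35K minus R35A was 0.72, 0.94 and 0.70 at 1, 6 and 18 hpi. For Spib, R35A minus WT was -1.23, -1.36 and -1.08 at 1, 3 and 6 hpi, and R35K minus R35A was 0.73 at 1 hpi and 0.92 at 3 hpi. Of these differences, that of Spib between R35A and WT at 120 hpi, 1.25 (adjusted p = 0.0188), rested on 3 to 25 counts per library and on R35A 120 hpi replicate 2, without which it was 0.42. With 2 replicates per group, no single library was tested as an outlier.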

How the results depend on the processing

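Across 48 comparisons of Spi1, 48 of Spib and 33 of Spic, no called direction reversed, and the call was kept in 526 of 531 alternative values for Spi1, 516 of 531 for Spib and 327 of 332 for Spic, leaving out those with no adjusted p from DESeq2. Spi1 from 6 to 18 hpi in WT was -0.60, and called, when each library of some group had to hold 10 counts, and Spic from 18 to 120 hpi in WT was 0.81 and called under that filter. Spic from 6 to 18 hpi in WT was 1.04 and called with DESeq2's size factors. Spib in R35A against WT at 120 hpi was 1.06 by DESeq2's Wald test (adjusted p = 0.0566).

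The other changed calls came from leaving out single libraries, which fit a lone sample with the spread pooled over groups. Spi1 then ranged from -0.61 to -0.56 for WT from 6 to 18 hpi and from 0.58 to 0.63 for R35A against WT at 6 hpi. Spic ranged from 0.69 to 1.22 for WT from 6 to 18 hpi, 0.56 to 1.09 for WT from 18 to 120 hpi, and 0.76 to 1.18 for R35A from 1 to 3 hpi. Spib ranged from 0.25 to 2.22 for R35A against WT at 120 hpi and 0.42 to 2.39 in the change, from -0.59 to -0.46 and 0.46 to 0.67 for R35K minus WT at 6 and 18 hpi, and from 0.48 to 0.62 and 0.47 to 0.64 for R35K minus R35A at these times.

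Replicate numbers did not mark pairs: over 153 pairs of groups, same-numbered libraries correlated at a median of -0.005 in their deviations, over 0.1 in 10 pairs. A replicate block changed no call of Spi1, Spib or Spic (Spi1 at 1 hpi in WT stayed at 1.18) and kept other counts of called genes at 0.9 to 1 times, except that R35A against WT at 0 hpi went from 0 to 1 gene. Genes called there numbered 16 with no low-count filter. In small steps counts moved more, as in WT from 3 to 6 hpi, with 176 genes by edgeR and 60 by DESeq2, R35A from 3 to 6 hpi, with 30 and 12, R35K from 1 to 3 hpi, with 57 and 16, and R35K minus R35A in the change to 120 hpi, with 278 and 171. DESeq2 also called 109 genes against 176 by edgeR for WT from 1 to 3 hpi, 46 against 94 for R35A from 1 to 3 hpi, 106 against 195 for R35K from 3 to 6 hpi, and 322 against 521 for R35K minus R35A in the change to 3 hpi. Single libraries moved such counts by over 1.5 times as well. WT from 3 to 6 hpi gave 106 genes without WT 6 hpi replicate 1, and R35A from 1 to 3 hpi 54 without R35A 3 hpi replicate 2. R35A from 3 to 6 hpi gave 10, 15 and 11 without R35A 3 hpi replicate 2, R35A 6 hpi replicate 1 and R35A 6 hpi replicate 2. R35K from 1 to 3 hpi gave 35 and 28 without R35K 1 hpi replicate 1 and R35K 3 hpi replicate 2, R35K minus R35A in the change to 120 hpi 185 without R35K 120 hpi replicate 2, and R35A against WT at 0 hpi 11 and 1 without R35A 0 hpi replicate 2 and WT 0 hpi replicate 1. DESeq2's size factors moved the median of all genes at 120 hpi by 0.15 in WT, and relative to that median Spi1 stood at 3.84 under either scaling. Spic at 0 hpi, with 0 to 3 counts per library, is at the limit of depth.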

Other observations

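The genes whose log2 CPM ran most opposite to a member over the 36 libraries were Kpnb1 for Spi1 (Pearson r = -0.956), Cd80 for Spib (-0.979) and Tenm4 for Spic (-0.924). Kpnb1 encodes the nuclear import receptor importin beta and Cd80 a costimulatory ligand of antigen presenting cells. The sum of the 3 members was nearly all Spi1 at the end of the course: per exon length, Spi1 made up 22.8% to 25.0% of the family's CPM per kb in the libraries of 0 hpi and 99.0% to 99.6% in those of 120 hpi.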
